A study of Mus musculus with 6 samples.

Results

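The 7 transcripts described here are long noncoding RNAs (lncRNAs) with known roles in heart or in nuclear RNA biology: Gas5, Malat1, Neat1, Miat, Tug1, Kcnq1ot1 and Mhrt. They were found by symbol in the GRCm38 mouse annotation and are 7 of the 52550 mouse genes counted, of which 11938 are annotated as lncRNA genes. All 7 had a row in every library, and 6 of them passed the filter on low counts. Miat did not pass, with 22 reads in the 6 libraries together.

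Reads were counted in whole hearts of mice at postnatal day 7. There were 3 control libraries and 3 of GR-cKO hearts, which lack the glucocorticoid receptor gene (Nr3c1) in cardiomyocytes. All 6 are labelled as biological replicates, without naming the Cre driver, the exon removed or what the controls carry. Each library was made from 100 ng of total RNA with a 3′ end method that primes on poly(A) and counts transcripts without regard to their length. Levels are given as CPM, a gene's reads scaled to a common total of reads of tested genes, without a correction for length. Comparing levels of different genes assumes that they are primed equally well, which was not tested.

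LncRNAs are transcripts that code for no protein and act as RNA, often by binding proteins in the nucleus. Gas5 is a host gene of small nucleolar RNAs (snoRNAs) and its spliced RNA is a reported decoy that binds the DNA-binding domain of the glucocorticoid receptor. Malat1 and Neat1 are neighbouring nuclear RNAs, of which Malat1 lies in nuclear speckles and Neat1 builds the paraspeckle. Kcnq1ot1 is an imprinted antisense RNA that silences neighbouring genes, and Mhrt is a cardiac RNA transcribed antisense to the myosin heavy chain gene Myh7.

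The counts of these genes rest on where a poly(A) primer can bind, so the sequences at the annotated 3′ ends are given first, from transcripts of the GENCODE M21 set. Each is the last 60 bases of an annotated transcript, 5′ to 3′ on the strand of the gene, with the last AATAAA or ATTAAA poly(A) signal in capitals. Coordinates are GRCm38.
Gas5, chr1:161038480-161038539, plus strand: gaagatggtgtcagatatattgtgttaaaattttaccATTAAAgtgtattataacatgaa
Malat1, chr19:5795690-5795749, minus strand: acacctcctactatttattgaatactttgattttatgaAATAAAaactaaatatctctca
Neat1, chr19:5842307-5842366, minus strand: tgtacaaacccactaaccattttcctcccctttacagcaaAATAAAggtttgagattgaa
Miat, chr5:112213228-112213287, minus strand: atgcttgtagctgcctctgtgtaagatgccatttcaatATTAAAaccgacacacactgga
Tug1, chr11:3639785-3639844, minus strand: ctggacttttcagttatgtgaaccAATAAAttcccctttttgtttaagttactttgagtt
Kcnq1ot1, chr7:143203458-143203517, minus strand: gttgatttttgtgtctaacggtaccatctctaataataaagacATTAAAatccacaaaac
The Neat1 end belongs to a short isoform of 3004 spliced bases, which ends far upstream of the long single-exon isoform of 20771 bases. Of the 4 annotated Neat1 transcripts, 1 had a signal in its last 40 bases. Reads were counted by gene, so the Neat1 level does not tell these isoforms apart. For Mhrt, neither signal was found in the last 40 bases of its annotated transcripts, and no end is shown. All ends shown are those of the annotation, and whether the RNAs counted here carried a poly(A) tail at them was not tested.

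A primer of T bases can also bind a run of A inside a transcript. Runs of 12 or more A were found in the annotated transcripts of 3 of the 7 genes, and the longest of each is shown with 20 bases on either side and the run in capitals.
Malat1, chr19:5795968-5796019, minus strand: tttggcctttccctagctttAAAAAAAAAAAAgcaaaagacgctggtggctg
Tug1, chr11:3646091-3646148, minus strand: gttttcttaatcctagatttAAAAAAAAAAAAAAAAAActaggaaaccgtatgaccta
Kcnq1ot1, chr7:143226925-143227005, minus strand: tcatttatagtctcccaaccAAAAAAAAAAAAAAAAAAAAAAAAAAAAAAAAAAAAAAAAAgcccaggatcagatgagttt
Kcnq1ot1 had 8 such runs in its 93092 bases, the longest of 41 A. The longest run was 18 A in Tug1, 12 in Malat1, 7 in Neat1, 5 in Gas5 and in Mhrt, and 4 in Miat. The Malat1 run begins at base 6674 of a transcript annotated with 6983 bases, so it lies near the annotated end. The counts do not show where in a gene a read began, so the share of reads from these runs was not tested.

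The libraries held 17824953 to 22574722 reads of mouse genes, and 18851 to 19673 genes had at least 1 read. Nr3c1, the targeted gene, was at 114.5, 131.4 and 99.75 CPM in the controls and 57.57, 49.23 and 56.21 in GR-cKO. It fell by 1.08 on the log2 scale (SE 0.125, edgeR adjusted p = 0.00101), in whole hearts that also hold cells in which the gene is not deleted. In bulk tissue, fewer cells of a type and less RNA per cell cannot be told apart. The summed level of 8 cardiomyocyte markers was 43500 to 44200 CPM in the controls and 42400 to 52400 in GR-cKO. Xist marked control replicate 1 and GR-cKO replicate 1 as female, and the other libraries, with 4 to 12 Xist reads, as male.

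GR-cKO replicate 3 stood apart from the others in measures that touch these RNAs. It had the highest cardiomyocyte marker sum, 52400 CPM, and 10.9% of its reads lay on Gm42418, an annotated lncRNA that overlaps ribosomal RNA sequence, against 5.47% to 7.69% in the other libraries. The remaining lncRNA genes took 0.889% of its reads, against 1.07% to 1.31% elsewhere. The 7 RNAs together took 0.138%, against 0.168% to 0.25% elsewhere. Fold changes of the 6 tested RNAs and the results it moved most are also given without it.

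No member passed the test between GR-cKO and control. The edgeR estimates of the 6 tested members lay between 0.03 and 0.11 on the log2 scale. All were above 0, as were 7619 of all 14860 tested genes. The median of the 6 was 0.06, beside 0.01 over all tested genes and 0.06 over all tested lncRNA genes. With a library left out, each of the 6 but Gas5 fell below 0 in some fit. None of the 6 passed at an unadjusted p under 0.05 either. Over all tested genes 0.00673% passed an adjusted p under 0.05, a single gene, and 4.20% passed an unadjusted p under 0.05. In none of the 6 did the groups fail to overlap, where 9.97% of all tested genes had groups that did not overlap, 4.70% with GR-cKO above and 5.27% with GR-cKO below. DESeq2, which passed 0.0269% of genes at an adjusted p under 0.05, passed none of the 6 either.

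**Figure D1:**
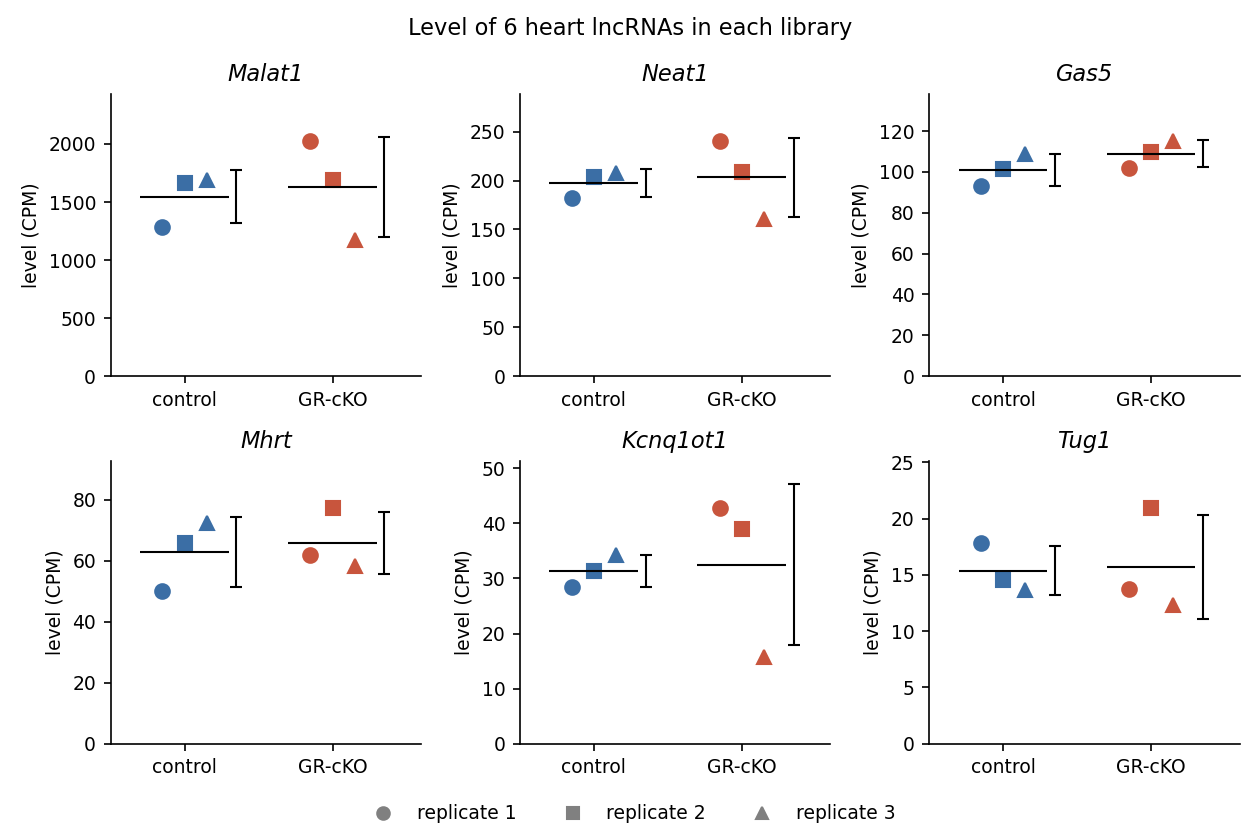
Level of each tested lncRNA in CPM (y axis, from 0) in the 3 control and 3 GR-cKO libraries, with the group mean as a line and 1 SD as a bar. The groups overlap in every panel, and GR-cKO replicate 3 is the lowest library for Malat1, Neat1, Kcnq1ot1 and Tug1.

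Gas5 lies on chromosome 1 (161034422 to 161038539, plus strand) and has 25 annotated transcripts. Its level was 93.0, 101.4 and 108.7 CPM in the controls and 101.8, 109.7 and 115.3 in GR-cKO. The GR-cKO libraries lay slightly higher, but the lowest of them was within the control range. The means were 101 ± 7.87 and 109 ± 6.77 CPM (SD, n = 3 each). The edgeR estimate on the log2 scale was 0.11 (SE 0.114, 95% interval from -0.13 up to 0.35, edgeR adjusted p = 0.998). Over all 6 libraries Gas5 had the narrowest range of the 6 RNAs, with a highest level 1.24 times its lowest. Its coefficients of variation were 7.79% and 6.21%, and in the controls that of Neat1 was lower, at 7.04%. The medians over genes at 5 CPM or more were 10.7% and 12.8%. Gas5 was also the only one of the 6 at its highest in GR-cKO replicate 3.

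The ratio of the decoy transcript to the receptor transcript was higher in GR-cKO. There were 81.2, 77.1 and 109 Gas5 reads per 100 Nr3c1 reads in the controls, and 177, 223 and 205 in GR-cKO. All 3 GR-cKO libraries were above all 3 controls, with means of 89.1 ± 17.3 and 202 ± 23.2 (SD, n = 3 each). The exact two-sided permutation test gave p = 0.1, the smallest that 3 libraries against 3 allow. The Nr3c1 side of this ratio was set by the deletion, so a gene at an unchanged level would also give a higher ratio. Neither the ratio nor its p-value is therefore evidence of a change in Gas5. The ratio is of transcripts in whole heart, not within cardiomyocytes.

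The span of Gas5 overlaps that of Zbtb37, a zinc finger gene on the opposite strand, by 428 bases, of which 0 are exonic in both. Zbtb37 had means of 14.5 and 12.6 CPM and a log2 fold change of -0.20. All 10 annotated snoRNA rows within Gas5 had 0 reads. Each lies wholly within Gas5 exons on the same strand, a position in which 0.728% of 687 genes had a read. Their zeros therefore do not show whether the snoRNAs were present. Among 21 other tested host genes of snoRNAs, 11 had an estimate above 0 and 10 below, with a median of 0.04, and none passed an adjusted p under 0.05. An unadjusted p under 0.05 was passed by 3 of the 21, and by 4.20% of all tested genes. The 3 were Nop56, a snoRNP core protein gene, at 0.50, Snhg14 at 0.40 and Snhg9 at 0.36 (edgeR adjusted p = 0.998 for each). The most abundant hosts were Ncl (nucleolin), with means of 459 CPM in control and 437 in GR-cKO, Rpsa (397 and 386) and Tpt1 (390 and 334). Spliced Gas5 RNA is a known substrate of nonsense-mediated decay. Of the 14 tested genes of that pathway, 9 had estimates above 0 and 5 below, with a median of 0.10, and none passed an adjusted p under 0.05. Rbm8a, an exon junction protein gene, was at 0.26 (unadjusted p = 0.0451).

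The list of Nr3c1 and glucocorticoid-responsive genes gave a frame for Gas5. Of its 14 tested genes, 4 had estimates above 0 and 10 below, with a median of -0.16 (-0.27 without GR-cKO replicate 3, -0.05 without GR-cKO replicate 1), and Nr3c1 alone passed. The list was drawn up with results of these data known, so its direction is not independent evidence. Mt2 and Mt1, metallothionein genes, had log2 fold changes of -0.68 and -0.43, and Pdk4, a kinase gene that limits glucose oxidation, had -0.50. Klf9, also among the most abundant genes of the list, had -0.16. None of them passed (edgeR adjusted p = 0.998 for each), and the 4 genes with estimates above 0 are not named here. In RefSeq windows from 250 bases before to 50 after a start site (GRCm38.p6), AGAACA or its reverse complement TGTTCT, the arms of the glucocorticoid receptor motif, was in none of the windows of Gas5, Malat1, Miat, Tug1, Kcnq1ot1 and Mhrt. Neat1 had no window in that table and was not searched. These words were in 6233 of all 32851 windows, 19%.

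**Figure D2:**
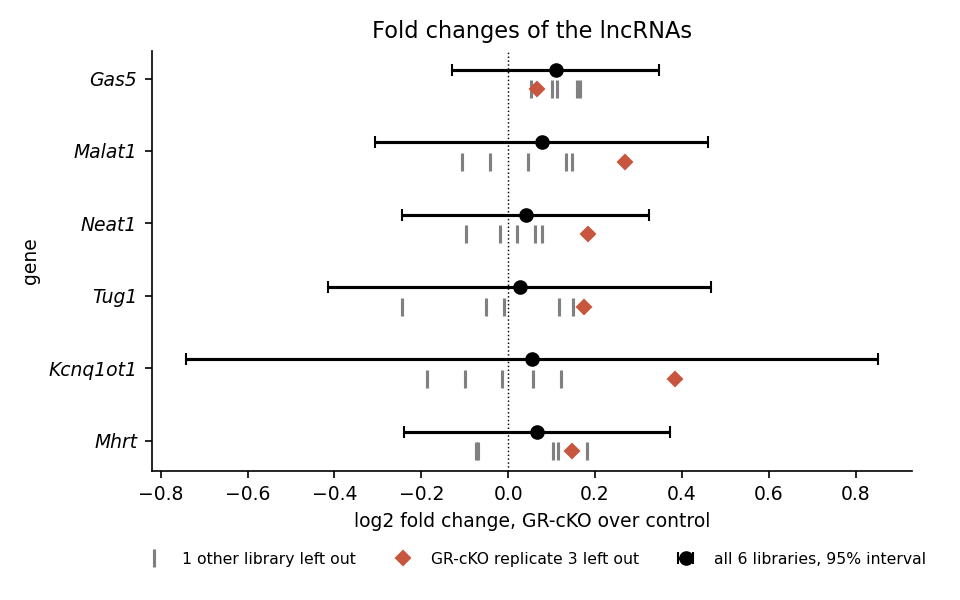
Log2 fold change of GR-cKO over control (x axis) for the 6 tested lncRNAs, with all libraries and the 95% interval in black, with GR-cKO replicate 3 left out as a red diamond, and with another library left out as a grey tick. Every interval holds 0, and Malat1, Neat1, Tug1 and Kcnq1ot1 have their highest value without GR-cKO replicate 3.

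Malat1 and Neat1 lie on the minus strand of chromosome 19, at 5795690 to 5802672 and 5824708 to 5845478. Malat1 was at 1283, 1663 and 1692 CPM in the controls and 2029, 1694 and 1171 in GR-cKO. The highest and the lowest of the 6 libraries were both GR-cKO, replicates 1 and 3. The means were 1546 ± 228 and 1631 ± 433 CPM (SD, n = 3 each). The edgeR log2 estimate was 0.08 (SE 0.176, 95% interval -0.31 to 0.46, edgeR adjusted p = 0.999).

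Neat1 repeated this order of the GR-cKO libraries at a lower level. It was at 181.8, 203.3 and 207.8 CPM in the controls and 240.9, 208.3 and 160.5 in GR-cKO. The control libraries lay close together, and GR-cKO replicates 1 and 3 lay on either side of them. The means were 198 ± 13.9 and 203 ± 40.5 CPM, giving a log2 fold change of 0.04 (SE 0.136, 95% interval -0.24 to 0.32, edgeR adjusted p = 0.999).

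The proportion of the neighbours to each other varied little. There were 14.2, 12.2 and 12.3 Neat1 reads per 100 Malat1 reads in the controls and 11.9, 12.3 and 13.7 in GR-cKO (12.9 ± 1.11 and 12.6 ± 0.962, SD, n = 3 each, exact permutation p = 0.7). The coding gene Frmd8 lies 4224 bases from Neat1 and had a log2 fold change of 0.02. Malat1 overlaps Gm37376, an opposite-strand gene with 4 reads in all.

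Genes of the bodies that hold these RNAs showed no called change. Of the 15 paraspeckle protein genes, 10 had estimates above 0 and 5 below, with a median of 0.06. Hnrnpk had means of 568 and 593 CPM, and Sfpq and Nono, the core proteins bound by Neat1, 172 and 180 and 33.2 and 37.6. The list also held Dazap1, at 226 and 258 CPM (edgeR adjusted p = 0.998). Its GR-cKO libraries were all above the controls, as in 4.70% of all tested genes. Of the 17 tested speckle and splicing genes, 14 had estimates above 0 and 3 below, with a median of 0.08. Srrm2, a speckle scaffold gene, had means of 352 and 354 CPM. None of either list passed an unadjusted p under 0.05.

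Kcnq1ot1 lies on the minus strand of chromosome 7 (143203458 to 143296549), as a single exon within the span of Kcnq1, a potassium channel gene on the plus strand. Its level was 28.38, 31.39 and 34.25 CPM in the controls and 42.77, 39.0 and 15.81 in GR-cKO. GR-cKO replicates 1 and 2 were above all controls and replicate 3 was below all of them. The means were 31.3 ± 2.94 and 32.5 ± 14.6 CPM, giving a log2 fold change of 0.05 (SE 0.338, 95% interval -0.74 to 0.85, edgeR adjusted p = 0.999). Its coefficient of variation was 44.9% in GR-cKO, the widest of the 6.

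Kcnq1 was highest where Kcnq1ot1 was lowest, in GR-cKO replicate 3. In that library 24.7% of tested protein-coding genes were at their highest, and 31.7% of lncRNA genes and 17.1% of antisense genes at their lowest. Whether the pattern is particular to this locus was not tested. Kcnq1 was at 56.18, 49.01 and 56.33 CPM in the controls and 50.87, 50.88 and 70.19 in GR-cKO. That gave 50.5, 64 and 60.8 Kcnq1ot1 reads per 100 Kcnq1 reads in the controls and 84.1, 76.6 and 22.5 in GR-cKO (58.5 ± 7.07 and 61.1 ± 33.6, exact permutation p = 1). The difference of 2.63 was 21.9 without GR-cKO replicate 3. It was -8.86 without GR-cKO replicate 1, -5.14 without GR-cKO replicate 2 and -1.34 without control replicate 1. Cdkn1c, an imprinted cell cycle inhibitor gene of this domain, had means of 37.9 and 34.2 CPM. Only 121 exonic bases, 0.13% of Kcnq1ot1, overlap exons of Kcnq1. A small RNA annotated on the opposite strand inside it, Gm27803, had 416 reads in all. That gene was at 3.98, 4.52 and 3.25 CPM in the controls and 3.52, 3.91 and 1.56 in GR-cKO, and so was also lowest in replicate 3.

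Tug1 lies on the minus strand of chromosome 11 (3639785 to 3649673), and 483 of its exonic bases (4.96%) overlap exons of Morc2a on the other strand. Its level was 17.88, 14.59 and 13.69 CPM in the controls and 13.74, 20.94 and 12.32 in GR-cKO. A single GR-cKO library, replicate 2, was above the controls, and the other two were near or below the lower end of their range. The means were 15.4 ± 2.21 and 15.7 ± 4.62 CPM, giving a log2 fold change of 0.03 (SE 0.210, 95% interval -0.41 to 0.47, edgeR adjusted p = 1). Morc2a, a chromatin compaction gene, had means of 13.8 and 11.8 CPM, and Smtn, a smooth muscle cytoskeletal gene nearby, 120.3 and 133.

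Tug1 and Kcnq1ot1 have both been reported to bind chromatin-modifying enzymes. Of 13 genes of such enzymes, 6 had estimates above 0 and 7 below, with a median of -0.00, and none passed an unadjusted p under 0.05. Jarid2, a Polycomb cofactor gene abundant in heart, had means of 166 and 174 CPM. Ehmt2, the histone methyltransferase gene G9a, had 40.7 and 46.3, and Ezh1 had 47.9 and 55.8.

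Mhrt lies on the plus strand of chromosome 14 (54968678 to 54974349), antisense to Myh7 and 1751 bases from Myh6. Of its 1214 exonic bases, 484 (39.87%) overlap exons of Myh7, so its count depends on the use of strand. Its level was 50.15, 65.86 and 72.48 CPM in the controls and 61.76, 77.29 and 58.25 in GR-cKO. The groups overlapped, and control replicate 1 was the lowest of all. The means were 62.8 ± 11.5 and 65.8 ± 10.1 CPM, giving a log2 fold change of 0.07 (SE 0.146, 95% interval -0.24 to 0.37, edgeR adjusted p = 0.999).

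Myh7, the slow and fetal myosin heavy chain gene, varied far more than its antisense RNA. It was at 132.1, 73.21 and 88.95 CPM in the controls and 71.97, 105.6 and 273.9 in GR-cKO (log2 fold change 0.62, SE 0.626). The high value is that of replicate 3, in which Mhrt was within the control range. Mhrt reads per 100 Myh7 reads were 38, 90 and 81.5 in the controls and 85.8, 73.2 and 21.3 in GR-cKO (69.8 ± 27.9 and 60.1 ± 34.2, exact permutation p = 0.6). The lowest ratios were those of the libraries with the most Myh7. The difference between the group means, GR-cKO minus control, was -9.72, and it was 9.7 without GR-cKO replicate 3 and 0.363 without control replicate 2. It was -25.6 without control replicate 1, -22.6 without GR-cKO replicate 1 and -16.3 without GR-cKO replicate 2, so its direction rested on single libraries. Myh6, the adult mouse ventricular isoform, was at 10540 to 11240 CPM in the controls and 9356 to 14060 in GR-cKO. Mhrt amounted to 0.463, 0.625 and 0.645 reads per 100 Myh6 reads in the controls and 0.51, 0.826 and 0.414 in GR-cKO (exact permutation p = 1), a difference of 0.0058. That difference was -0.116 with GR-cKO replicate 2 left out and 0.0904 with replicate 3 left out.

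Myh7b, a further myosin gene, was at 17.27, 15.67 and 22.13 CPM in the controls and 24.9, 27.07 and 22.27 in GR-cKO. Its GR-cKO libraries were all above the controls, as in 4.70% of all tested genes, though the gap was narrow. The log2 fold change was 0.43 (SE 0.170, edgeR adjusted p = 0.998). Smarca4, the chromatin remodeller gene whose protein Brg1 binds Mhrt, had means of 156 and 164 CPM and a log2 fold change of 0.07. Myh7b is related to Myh7 but lies on chromosome 2, away from all 7 RNAs. The list of locus genes held 13 tested genes, 12 near the RNAs and Myh7b. Of these, 8 had estimates above 0 and 5 below, with a median of 0.09 that was -0.08 without GR-cKO replicate 3.

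**Figure D3:**
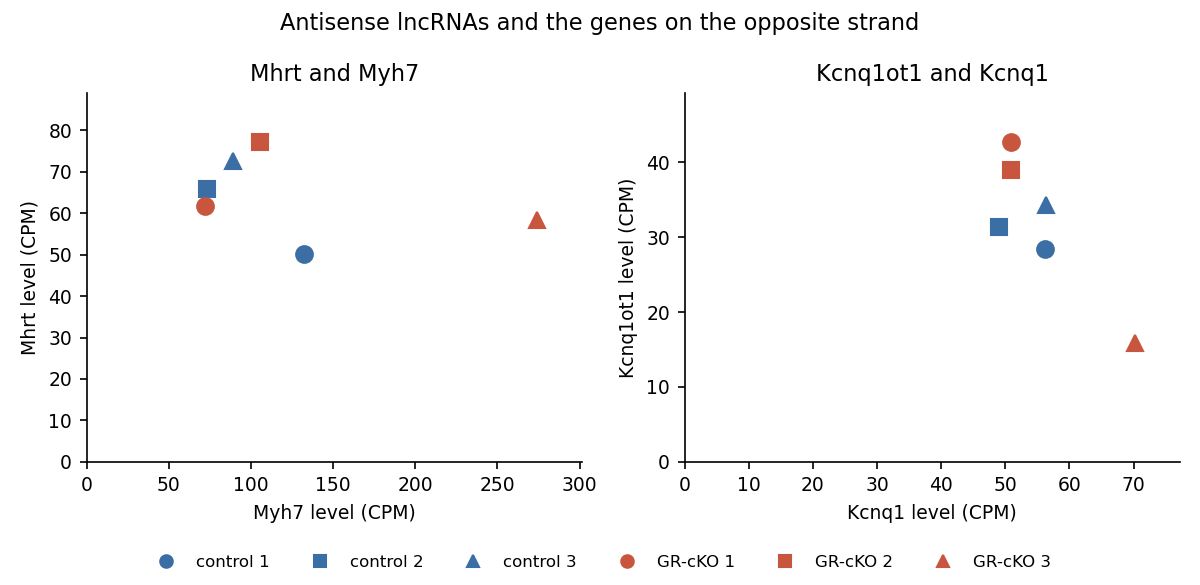
Level of Mhrt against Myh7 (left) and of Kcnq1ot1 against Kcnq1 (right), in CPM, with 1 point for each of the 6 libraries. GR-cKO replicate 3 has the most Myh7 (273.9 CPM) and Kcnq1 (70.19 CPM) and the least Kcnq1ot1 (15.81 CPM), while its Mhrt level (58.25 CPM) lies within the control range.

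The counts themselves bear on whether strand was used. Of 449 genes lying wholly within exons of the opposite strand alone, 18.5% had a read, and together they had 10057 reads. Of 687 genes lying wholly within exons of another gene on the same strand, 0.728% had a read, with 60 reads in all. Reads were thus given to genes whose every base is covered by an opposite-strand exon, and almost none to genes covered on their own strand. No source used here gives the strand setting, and these sets rest on GENCODE M21, which may differ from the annotation that was counted.

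Miat, a nuclear RNA first linked to myocardial infarction, lies on chromosome 5 (112213228 to 112229395, minus strand). It had 0, 3 and 2 reads in the controls and 7, 7 and 3 in GR-cKO. In CPM the GR-cKO libraries lay above the controls, by 0.161 against 0.154 at the nearest, where both libraries had 3 reads. Miat was not tested, and counts this low allow no statement on a difference. Qk, a splicing factor gene whose protein is reported to bind Miat, had means of 347 and 377 CPM.

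Over the 7 RNAs, the order from highest to lowest level was Malat1, Neat1, Gas5, Mhrt, Kcnq1ot1, Tug1, Miat. Malat1 was 7.93 times Neat1, Neat1 1.91 times Gas5, Gas5 1.63 times Mhrt, Mhrt 2.01 times Kcnq1ot1, and Kcnq1ot1 2.06 times Tug1 in mean CPM. Each step held in 6 of 6 libraries, and only the ranges of Kcnq1ot1 and Tug1 over the 6 libraries overlapped. The steps compare reads, and differences in priming between genes were not tested. Among the 11938 lncRNA genes, Malat1 ranked 2, Neat1 8, Gas5 14, Mhrt 22, Kcnq1ot1 39 and Tug1 86.

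**Figure D4:**
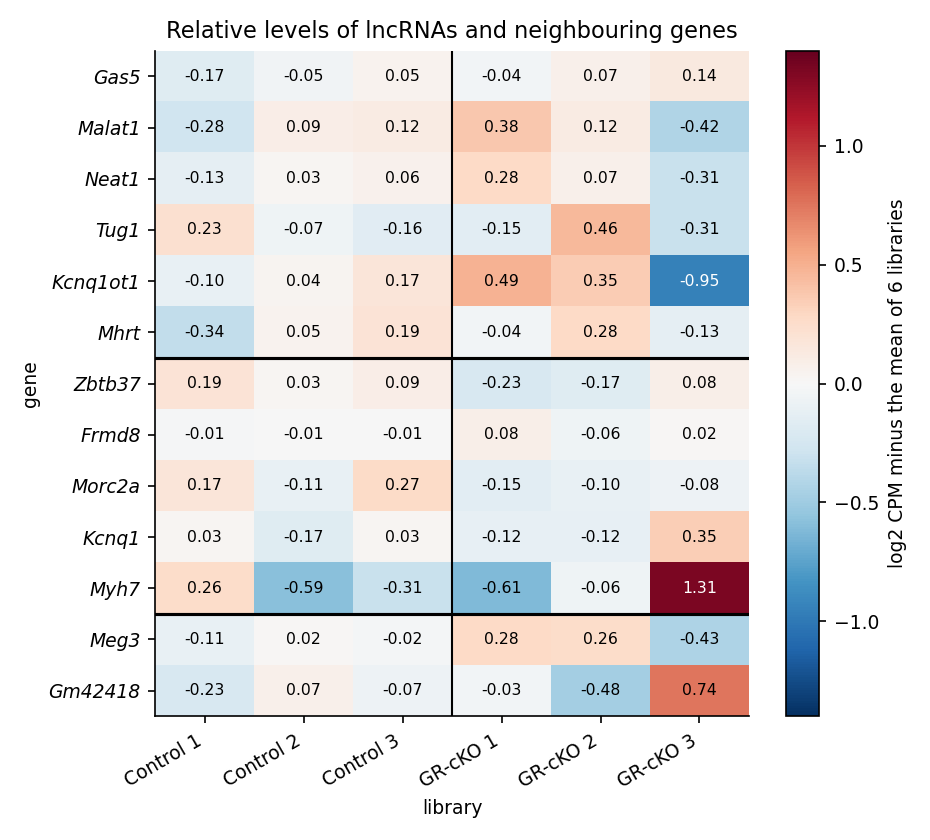
Log2 CPM of each gene minus its mean over the 6 libraries (colour and printed value) for the 6 tested lncRNAs, 5 neighbouring coding genes, and the lncRNAs Meg3 and Gm42418. In the GR-cKO replicate 3 column Kcnq1ot1 is at -0.95, Malat1 at -0.42 and Meg3 at -0.43, and Myh7 at 1.31.

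Malat1, Neat1, Tug1 and Kcnq1ot1 had their highest estimates with GR-cKO replicate 3 left out. Without it, the log2 fold change was 0.38 for Kcnq1ot1 (SE 0.142, unadjusted p = 0.0143) and 0.27 for Malat1 (SE 0.114, unadjusted p = 0.0306) by edgeR. Both had an edgeR adjusted p of 0.953. Neat1 was at 0.18, Tug1 at 0.17, Mhrt at 0.15 and Gas5 at 0.07. In that fit 5.13% of all tested genes passed an unadjusted p under 0.05 and 0.0130% an adjusted p under 0.05. In Malat1, Neat1 and Kcnq1ot1 both remaining GR-cKO libraries lay above all controls, as in 10.8% of all tested genes. In no member did both lie below, as in 10.3%. The gaps above the controls were narrow for Malat1, 1694 against 1692 CPM, and for Neat1, 208.3 against 207.8 CPM. Malat1, Neat1 and Kcnq1ot1 were lowest in the library left out, so their higher estimates without it follow in part from that choice. DESeq2 without this library gave the same 0.38 and 0.27, with adjusted p of 0.88 and 0.999. Without GR-cKO replicate 1 instead, Kcnq1ot1 was at -0.19, Malat1 at -0.11 and Neat1 at -0.10, so their direction rested on single libraries. Without GR-cKO replicate 2, Tug1 was at -0.24. Mhrt was at -0.07 without control replicate 1 or without GR-cKO replicate 2.

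The same library was low for lncRNA genes at large. Of 1518 tested lncRNA genes, 31.7% had their lowest level in GR-cKO replicate 3, against 20.7% of 12902 protein-coding genes. Within the lncRNA genes, the share was 42.8% of the 598 genes of the TEC class, loci that await experimental support, 28.6% of the 304 lincRNAs and 17.1% of the 281 antisense genes. Kcnq1ot1, Malat1, Neat1 and Tug1 were lowest there, and Gas5 and Mhrt in control replicate 1. In GR-cKO replicate 3, median log2 CPM relative to the mean of the libraries was -0.22 for lncRNA genes and 0.02 for coding genes. For antisense genes it was 0.01. In GR-cKO replicate 1 it was 0.25 for lncRNA genes. The part of RNA quality or library make-up in this was not tested.

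**Figure D5:**
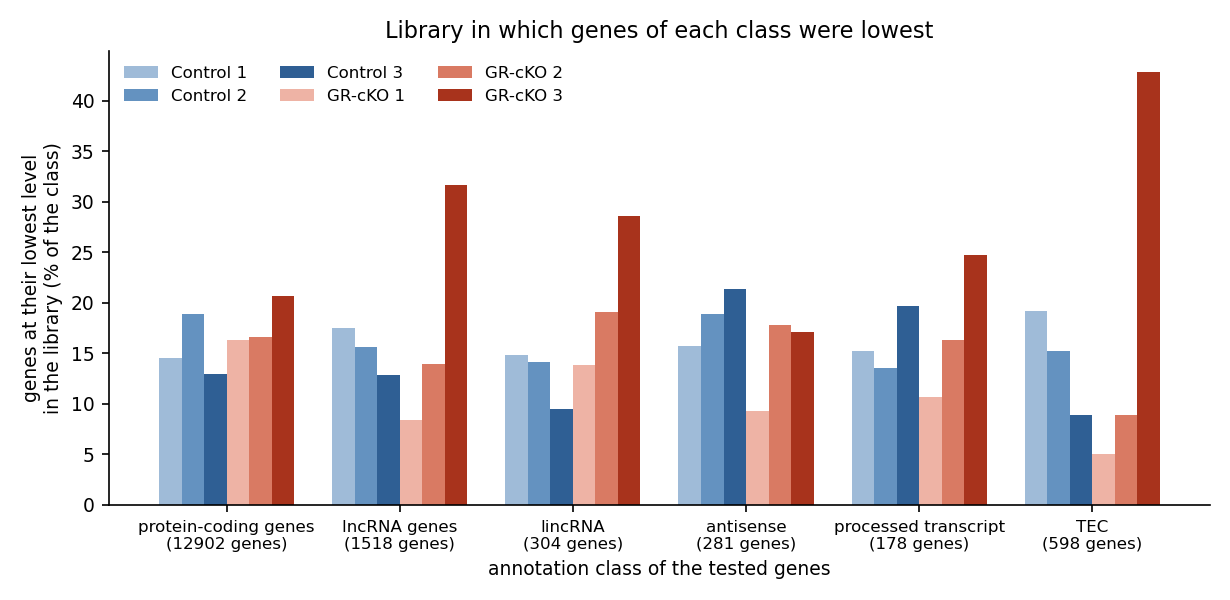
Share of the tested genes of each annotation class (x axis) that had their lowest level in each library (bars, percent of the class). The GR-cKO replicate 3 bar is at 31.7% for lncRNA genes, 42.8% for the TEC class and 20.7% for protein-coding genes.

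No lncRNA gene passed the edgeR test between the groups, of 1518 tested, and 47 (3.10%) passed an unadjusted p under 0.05, 27 higher and 20 lower in GR-cKO. DESeq2 called 1. The smallest edgeR adjusted p was 0.509. The median log2 fold change over lncRNA genes was 0.06, with 836 above 0 and 682 below. It was 0.15 without GR-cKO replicate 3, where 1729 lncRNA genes were tested, 1046 above 0 and 683 below. Of these, 97 were higher and 29 lower at an unadjusted p under 0.05, beside 365 and 395 of all 14860 genes. The library left out was the lowest for 31.7% of lncRNA genes, so the higher values without it follow in part from that choice. Without GR-cKO replicate 1 the median over lncRNA genes was -0.04. Among 21 tested lncRNAs with other reported heart or imprinted roles, 11 estimates were above 0 and 10 below, with a median of 0.01. That median was 0.12 without GR-cKO replicate 3, -0.06 without control replicate 2 and -0.05 without GR-cKO replicate 1. H19, an imprinted fetal RNA, was at 874.5, 754.6 and 874.8 CPM in the controls and 986.2, 877.5 and 894.6 in GR-cKO. All 3 GR-cKO libraries were above the controls, as in 4.70% of all tested genes, by a narrow gap of 874.8 against 877.5 CPM. The log2 fold change of 0.14 did not pass (edgeR adjusted p = 0.998). Mir22hg, the host of a cardiac microRNA, had means of 20.4 and 28.5 CPM, with groups that did not overlap either (log2 fold change 0.48, edgeR adjusted p = 0.998).

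The genes with the most similar pattern over the 6 libraries were found by the root mean square difference of relative log2 CPM, among 10230 other genes at 5 CPM or more. For Gas5 these were Rnf44 (0.0294) and Rabl6 (0.0308), for Malat1 Cdca2 (0.0535) and Gm42635 (0.0593), and for Neat1 Mri1 (0.0377) and Zmym5 (0.0466). For Tug1 they were Fsd1l (0.0631) and Ap4m1 (0.0761), for Kcnq1ot1 Gm42576 (0.0954) and 9430062P05Rik (0.1006), and for Mhrt Kifap3 (0.0482) and Itch (0.0567). The distances were larger for the more variable RNAs, whose own SD over the libraries ran from 0.109 for Gas5 to 0.508 for Kcnq1ot1. These values describe 6 libraries that share depth and composition differences.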

How the data were processed

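The authors deposited a table of raw read counts by Ensembl gene for each library, neither normalized nor pooled. Per the submitters' processing notes, tools included featureCounts 1.6.2, the aligner STAR 2.5.4a, cutadapt 1.16 and DESeq2 1.18.1, and the build was GRCm38. Annotation release, strand setting and treatment of multiply mapped reads: not given in the sources used here. Each file has 52649 rows, of which 92 ERCC and 7 SIRV spike-in rows were left out. GENCODE M21 gave symbols for 52403 of 52550 mouse genes.

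With edgeR 4.0.16 in R 4.3.3, filterByExpr kept 14860 genes, libraries were scaled by TMM, and genotype was tested with the quasi-likelihood F test with robust dispersion. P-values were adjusted over all tested genes (Benjamini-Hochberg, threshold 0.05), and this is the test behind every adjusted p unless another tool is named. Fold changes are GR-cKO over control. Ratios of reads were compared with two-sided exact permutation tests. Intervals cover the spread between libraries, and without molecular identifiers, reads are not independent molecules. On 14446 genes simulated for GR-cKO against control with the real means, 88 of 100 genes changed 2-fold and 100 of 100 changed 4-fold were called. The changed genes were drawn from those at a mean of 5 CPM or more, so genes below that level were not covered. The simulation held far more changed genes than the 1 called in the data, which loosens the cutoff set by the adjustment. These shares are therefore too high for the real comparison and do not give its power. DESeq2 1.42.0 and limma 3.58.1 gave alternatives.

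The members and gene lists were chosen with earlier results of these data known. Named genes were the members, their overlapping or neighbouring genes, the 3 most abundant and 2 smallest-p genes of each list, the most abundant and smallest-p lncRNA genes, and the 2 closest patterns per member, of which a selection is printed. Sfpq, Nono and Snhg14 fall outside this rule and were chosen after their values were seen. The marker sums were, in CPM in control and then GR-cKO: endothelial 2490 to 2660 and 2490 to 2710, fibroblast 3070 to 3810 and 3020 to 3200, mural 849 to 921 and 774 to 1040, erythroid 6560 to 9230 and 6800 to 7790. For rarer cells they were macrophage 138 to 167 and 147 to 179, neutrophil 13.1 to 15.4 and 19.7 to 27.8, lymphocyte 4.15 to 6.29 and 5.33 to 7.04, epicardial 27.1 to 32.7 and 23.6 to 44.8, nerve 8.34 to 18.3 and 8.15 to 18.5, brown fat 117 to 283 and 129 to 176, and skeletal muscle 2350 to 2730 and 2180 to 2720. Results of some genes of the lists are not reported here.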

Additional observations from a re-analysis of the deposited data

How the results depend on the processing

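Across 11 settings and the leaving out of each library, no member passed an adjusted p under 0.05. With 1 library left out at a time, log2 fold changes ranged from 0.05 to 0.17 for Gas5, -0.11 to 0.27 for Malat1, -0.10 to 0.18 for Neat1, -0.24 to 0.17 for Tug1, -0.19 to 0.38 for Kcnq1ot1 and -0.0732 to 0.18 for Mhrt. With limma voom, Kcnq1ot1 was at -0.059. With replicate number as a block, Kcnq1ot1 was at -0.0457 and Tug1 at -0.0014, and the cause was not tested. Same-numbered libraries deviated together by only 0.062, 0.056 and 0.014 (correlation), so the numbers were not taken to pair hearts, and the block changed no call. Genes called higher over all tested genes were 0 with edgeR, 1 with DESeq2, 4 without a filter on low counts and 4 with DESeq2 without GR-cKO replicate 3, an alternative chosen after seeing the data. Genes called lower were 1 with edgeR, 3 with DESeq2, 2 with library totals, 6 without a filter, 2 with at least 10 reads in every library, 1 to 2 with a library left out, and 8 with DESeq2 without GR-cKO replicate 3. For lncRNA genes, those called higher were 1 with DESeq2, 1 without a filter and 2 with DESeq2 without GR-cKO replicate 3, and 1 was called lower without a filter. The median of the list of locus genes, which includes Myh7b of chromosome 2, ranged from -0.0818 to 0.12 with a library left out and was -0.0823 with DESeq2 without GR-cKO replicate 3. That of the snoRNA hosts was -0.0068 with library totals and -0.0065 without a filter, and ranged from -0.0074 to 0.0553. That of the glucocorticoid list ranged from -0.27 to -0.0468 and was -0.27 with DESeq2 without GR-cKO replicate 3. Depth limits Miat, with at most 7 reads in a library.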

Other observations

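Imprinted lncRNAs other than Kcnq1ot1 had estimates of either sign, and none passed the edgeR test. Meg3 was at 337, 367.4 and 356.8 CPM in the controls and 440.8, 433 and 269.6 in GR-cKO (log2 fold change 0.11), with GR-cKO replicate 3 the lowest library, as for Kcnq1ot1. Airn, antisense to Igf2r, had means of 29.7 and 24.8 CPM (log2 fold change -0.27). Carmn, a smooth muscle and cardiac lncRNA, had 0 reads in each control and 2, 7 and 5 in GR-cKO, too few for a test or a fold. It was chosen after its values were seen.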
